A study of Rattus norvegicus with 13 samples.

Results

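The genes described here encode the peptides angiotensin, endothelin, bradykinin and adrenomedullin, or the enzymes and receptors that make and read them, in the left ventricle (LV) of the pregnant rat. The list holds 9 genes (Agt, Agtr1a, Ace, Edn1, Ednra, Ednrb, Ece1, Bdkrb2 and Adm), and a probe set was taken as a member when its only gene symbol was on that list. This gave 11 probe sets of 7 genes among 31042 probe sets on the array, and Ednra and Ednrb, the endothelin receptors, were not analysed here because no probe set carried either as its only symbol. LV RNA was hybridized to 13 Affymetrix rat genome arrays, of which 5 came from control rats, 4 from methionine-treated rats (Met-fed) and 4 from rats treated with L-NAME, which blocks nitric oxide synthase. All rats were pregnant female Sprague Dawley, an outbred strain without a genetic change. By the labels, methionine (9 g/L) or L-NAME (1 g/L) was dissolved in the drinking water over days 1 to 20 of gestation. Controls drank water with neither, and hearts were taken on day 20 or 21. The study's methods instead describe multiparous rats, pregnant several times, with methionine given from the first pregnancy until the end. The labels and the methods thus differ on the length of exposure, and this was not resolved here. Methionine is the dietary source of homocysteine, so the Met-fed rats serve as a model of raised homocysteine reached through the diet and not through a lesion of its metabolism. The labels give no homocysteine level or blood pressure for the rats behind these arrays. All labelled control arrays were used, although the study's methods give a smaller number of controls, and the labels do not say how samples within a group relate, so p-values measure only the spread between these samples.

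Angiotensinogen, the product of Agt, is cut by renin and then by angiotensin-converting enzyme (ACE) to angiotensin II, which constricts vessels through the angiotensin type 1 receptor encoded by Agtr1a. Endothelin-1 is a strong constrictor that endothelin-converting enzyme releases from a larger precursor, while bradykinin and adrenomedullin relax vessels. ACE also breaks down bradykinin, and nitric oxide, whose synthesis L-NAME blocks, carries much of the relaxing signal of bradykinin in endothelium.

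The promoters of the 4 genes with a probe set that passed the test in any comparison are shown first, as the 250 bases before each transcription start, so that the sequence before a start of each gene that moved can be seen. The start is the 1 that the promoter table gives per gene. For Adm the window lies inside the annotated span of the gene and for Agtr1a it overlaps that span, so other transcripts of these genes begin further upstream. They are RefSeq sequences of the GRCr8 assembly, on the strand of the gene, at chr17:34435433-34435682 (minus strand) for Agtr1a, chr10:91409879-91410128 (plus) for Ace, chr5:155360781-155361030 (plus) for Ece1 and chr1:174179950-174180199 (plus) for Adm. Capitals mark matches to the motifs searched.
Agtr1a: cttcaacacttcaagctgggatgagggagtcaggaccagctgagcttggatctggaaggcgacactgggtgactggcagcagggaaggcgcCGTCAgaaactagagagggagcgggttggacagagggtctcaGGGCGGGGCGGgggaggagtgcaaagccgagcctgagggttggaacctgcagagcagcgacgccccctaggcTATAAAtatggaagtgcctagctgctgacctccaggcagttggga
Ace: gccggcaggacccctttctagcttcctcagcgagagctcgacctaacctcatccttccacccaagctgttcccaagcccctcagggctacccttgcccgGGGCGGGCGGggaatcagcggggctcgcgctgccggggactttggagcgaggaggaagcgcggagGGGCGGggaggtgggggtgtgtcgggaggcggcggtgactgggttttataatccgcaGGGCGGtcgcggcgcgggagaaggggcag
Ece1: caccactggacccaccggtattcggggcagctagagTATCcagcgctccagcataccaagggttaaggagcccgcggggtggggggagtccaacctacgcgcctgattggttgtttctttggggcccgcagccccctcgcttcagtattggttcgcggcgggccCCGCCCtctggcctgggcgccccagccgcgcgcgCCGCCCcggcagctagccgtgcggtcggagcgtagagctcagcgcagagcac
Adm: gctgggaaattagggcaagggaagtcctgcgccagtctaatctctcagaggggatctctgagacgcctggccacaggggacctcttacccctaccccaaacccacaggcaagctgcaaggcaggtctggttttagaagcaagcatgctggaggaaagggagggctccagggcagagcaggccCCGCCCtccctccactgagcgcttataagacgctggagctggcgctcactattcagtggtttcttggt

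Each of the 4 held a GC box (GGGCGG or CCGCCC), a motif found in 30.5% of the 33469 rat promoters of that length. Ace held 4 of them, at 151, 147, 86 and 29 bases before the start, with the first and second overlapping. Agtr1a held overlapping GC boxes at 117 and 112 bases, Ece1 held GC boxes at 86 and 52 bases, and Adm held 1 at 68 bases. TATAAA was searched only on the strand shown, where Agtr1a alone among the 4 had it, 45 bases before the start. Of all promoters, 8.1% had it in the window. Agtr1a also had the cAMP response core (TGACG or CGTCA, 18.2% of promoters) at 159 bases. GATA or TATC, which 55.9% of promoters held, was present in Ece1 at 214 bases. The hypoxia response core (ACGTG or CACGT, 16.6%) and the AP-1 motif (TGANTCA, 6.3%) were not matched in these 4 windows, which says only that these letters are not there. The windows of Ace and Ece1 were both 69.2% G or C and those of Agtr1a and Adm 60.8% and 58.8%, against a median of 51.2% over all promoters. Agt and Bdkrb2 had no entry among the promoters used.

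Values are log2 of the MAS5 signal, a linear intensity that the authors had scaled to a common mean on every array. A probe set was taken as above background on an array when its signal exceeded the brightest of 27 bacterial control probe sets there, and as dim when its mean was under the median probe set, a log2 signal of 4.87. Of the 11 probe sets, 7 were above background on all 13 arrays and 4 were not (Agt, the dimmer Agtr1a and 2 of 3 for Bdkrb2). Only 4 reached the median signal, namely the brighter sets of Agtr1a and Ace and the sets of Ece1 and Adm, so this peptide system was measured mostly at low signal. Levels of different probe sets are not compared with each other.

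The L-NAME arrays stood apart from the rest as a group. Their median signal was 34.2 to 36.9, against 25.7 to 27.2 in control and 25.8 to 29.2 in Met-fed arrays. The log2 ratio of 3′ to 5′ signal of β-actin, a sign of RNA integrity, was 2.48 ± 0.16 (SD, n = 4) in L-NAME, 3.47 ± 0.14 (n = 5) in control and 3.53 ± 0.17 (n = 4) in Met-fed (exact permutation test, 2-sided, p = 0.00794 for L-NAME against control). That of GAPDH was 0.56 ± 0.09 in L-NAME, 1.18 ± 0.11 in control and 1.12 ± 0.15 in Met-fed (SD; exact permutation p = 0.00794 for L-NAME against control). The 3′ bias was thus stronger in control and Met-fed arrays than in L-NAME arrays. Treatment and these array properties cannot be told apart in the L-NAME comparisons, where the median change over all probe sets was 0.22 against control and 0.25 against Met-fed, compared with 0.00 for Met-fed against control. Ventricular cardiomyocyte markers were bright everywhere, with the log2 of their summed signal at 14.22 to 14.37 in control, 13.92 to 14.43 in Met-fed and 13.58 to 13.81 in L-NAME, and 5 of 5 measured markers were lower in L-NAME. Atrial markers varied more between arrays, summing to 8.73 to 10.13 in control, 8.28 to 12.12 in Met-fed and 9.48 to 11.40 in L-NAME. None of the 3 atrial markers was called in any comparison. Endothelial markers, of cells that carry ACE and release endothelin-1, summed to 12.46 to 12.65 in control, 12.30 to 12.53 in Met-fed and 12.00 to 12.18 in L-NAME, with 4 of 6 lower in L-NAME and none called in Met-fed. Smooth muscle and pericyte markers summed to 10.79 to 10.97, 10.92 to 11.13 and 11.09 to 11.52, with 4 of 7 higher and 1 lower in L-NAME. Of leukocyte markers 4 of 6 were lower and 1 higher in L-NAME, of fibroblast markers 2 of 6 were lower, and of endocardium and mesothelium markers 2 of 2 were higher, their sum being 4.25 to 5.60 in control, 4.15 to 5.19 in Met-fed and 6.22 to 6.70 in L-NAME. These 2 were dim, at a mean log2 signal of 4.74 for Npr3 and 3.31 for Msln, and Msln was at background on at least 1 array. All probe sets under the median signal had a median change of 0.42 in L-NAME against control. These marker counts stand beside 45.7% of all probe sets called in that comparison. In LV pieces of mixed cells, fewer cells of a type and less RNA per cell cannot be told apart, and the part of these markers in the results below was not tested.

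Agt (1387811_at), the precursor of all angiotensins, was barely detected in control hearts. Its log2 signal was 1.80, 0.57, -0.05, 3.12 and 0.76 in control replicates 1 to 5, 2.42, 3.19, 2.47 and 3.96 in Met-fed replicates 1 to 4 and 1.97, 3.20, 2.72 and 2.74 in L-NAME replicates 1 to 4. It passed background on 1 of 5 control arrays and on 4 of 4 in both other groups, and control replicate 4 lay inside the range of the treated arrays. Met-fed exceeded control by 1.77 ± 0.58 (SE; 3.01 ± 0.72 against 1.24 ± 1.25, SD; limma p = 0.00736, adjusted p = 0.326), so the difference did not pass over all probe sets (exact permutation test p = 0.0556). L-NAME exceeded control by 1.42 ± 0.58 (2.66 ± 0.51, SD; limma adjusted p = 0.0550; exact permutation p = 0.0873), close to the threshold of 0.05. Over the alternatives run, the L-NAME difference passed only without control replicate 4 (1.89, limma adjusted p = 0.00599) or without L-NAME replicate 1 (1.65, limma adjusted p = 0.0476). It was 1.10 without control replicate 3 (limma adjusted p = 0.131), 0.97 after quantile normalization and 1.00 with arrays centred on their median (limma adjusted p = 0.169 and 0.171), and 0.24 or 0.089 with an offset of 16 or 50 added to every signal before the log. These differences start from a control level at background on most arrays, so their size depends on how low values are treated, and they are not given as folds.

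Ace, the enzyme that forms angiotensin II and breaks down bradykinin, fell in L-NAME on its brighter probe set (1387791_at). The log2 signals were 6.14, 6.04, 5.91, 6.37 and 6.66 in control, 5.65, 5.62, 5.34 and 6.03 in Met-fed and 5.12, 5.41, 4.85 and 5.80 in L-NAME. All 4 L-NAME arrays were below all 5 control arrays, and 1 of 4 Met-fed arrays lay inside the control range. L-NAME was lower than control by 1.91-fold (log2 change -0.93 ± 0.21, SE; 5.29 ± 0.41 against 6.22 ± 0.30, SD; limma adjusted p = 0.00170; exact permutation p = 0.00794, the smallest that 4 against 5 arrays allow). Met-fed was at 5.66 ± 0.28, a change of -0.56 ± 0.21 that did not pass over all probe sets (limma p = 0.0171, adjusted p = 0.372; exact permutation p = 0.0317). The dimmer Ace probe set (1370028_at) gave no such difference: its means were 3.75 ± 0.36, 3.80 ± 0.29 and 3.87 ± 0.63 (SD), with changes of 0.05 ± 0.31 in Met-fed and 0.13 ± 0.31 in L-NAME (SE; limma adjusted p = 0.973 and 0.775).

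Agtr1a, the receptor through which angiotensin II constricts vessels and acts on cardiomyocytes and fibroblasts, read differently on its probe sets. The brighter set (1384240_at) read 5.89, 6.34, 5.85, 5.48 and 5.84 in control, 4.87, 5.20, 5.82 and 5.25 in Met-fed and 5.47, 5.34, 5.10 and 6.00 in L-NAME. The treated arrays were mostly lower, with overlap in both comparisons. Met-fed differed from control by -0.59 ± 0.23 (SE; 5.28 ± 0.40 against 5.88 ± 0.31, SD; limma p = 0.0185, adjusted p = 0.377; exact permutation p = 0.0476), and L-NAME by -0.40 ± 0.23 (5.48 ± 0.38, SD; limma adjusted p = 0.168). The dimmer set (1369291_at) read 2.39, 3.41, 2.17, 2.08 and 2.69 in control, 3.22, 2.03, 2.68 and 2.98 in Met-fed and 4.27, 3.88, 3.77 and 4.63 in L-NAME. Here every L-NAME array was above every array of both other groups, and 1 control array was at background. L-NAME was 3.01-fold higher than control (95% interval 1.78 to 5.10; log2 change 1.59 ± 0.36, SE; limma adjusted p = 0.00160; exact permutation p = 0.0159). The change of this dim set was 0.61 and 0.28 with an offset of 16 or 50 added to every signal, and still passed (limma adjusted p = 0.000319 and 0.000280). The Met-fed change was 0.18 ± 0.36 (limma adjusted p = 0.894). Agtr1b encodes a closely related receptor whose transcript could share probes with Agtr1a; its own probe set was above background on 2 of 13 arrays.

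Edn1 (1369519_at), the precursor of endothelin-1, was a dim transcript that was above background on every array. Its log2 signal was 4.48, 4.47, 4.82, 4.85 and 3.94 in control, 4.53, 3.95, 3.21 and 3.90 in Met-fed and 3.47, 3.58, 4.87 and 4.66 in L-NAME. The L-NAME arrays split, with replicates 1 and 2 below all controls and replicates 3 and 4 among the highest values. The change was -0.61 ± 0.34 in Met-fed (SE; 3.90 ± 0.54 against 4.51 ± 0.36, SD; 95% interval -1.34 to 0.11; limma adjusted p = 0.544; exact permutation p = 0.103) and -0.37 ± 0.34 in L-NAME (4.14 ± 0.72, SD; 95% interval -1.09 to 0.36; limma adjusted p = 0.416). Neither difference passed the test, and the Edn1 values of the groups overlapped in both comparisons.

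Ece1 (1367801_at), which encodes the endothelin-converting enzyme, rose in L-NAME. It read 8.16, 7.84, 7.58, 8.02 and 7.88 in control, 8.40, 7.63, 8.05 and 7.99 in Met-fed and 8.31, 8.64, 8.77 and 8.78 in L-NAME. The L-NAME arrays were all above the controls, and the Met-fed arrays were spread over and beyond the control range. L-NAME was 1.66-fold higher than control (95% interval 1.33 to 2.07; log2 change 0.73 ± 0.15, SE; 8.63 ± 0.22 against 7.90 ± 0.22, SD; limma adjusted p = 0.000753; exact permutation p = 0.00794). The Met-fed mean was 8.02 ± 0.31, a change of 0.12 ± 0.15 with a 95% interval of -0.19 to 0.44 (limma adjusted p = 0.806).

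Bdkrb2 encodes the bradykinin receptor that is present without injury and drives vessel relaxation. Its brightest probe set (1370649_at) read 2.92, 2.78, 3.31, 3.21 and 2.88 in control, 3.10, 3.05, 3.25 and 3.41 in Met-fed and 3.69, 3.40, 2.82 and 3.49 in L-NAME, above background on all arrays but dim. The groups overlapped throughout. The change was 0.18 ± 0.28 in Met-fed (SE; 3.20 ± 0.16 against 3.02 ± 0.23, SD; limma adjusted p = 0.854) and 0.33 ± 0.28 in L-NAME (3.35 ± 0.37, SD; 95% interval -0.26 to 0.92; limma adjusted p = 0.362). The second set (1370650_s_at), above background on 11 of 13 arrays, ranged from 1.27 to 3.19 in control, 0.31 to 2.92 in Met-fed and 2.31 to 3.38 in L-NAME, with changes of -0.21 ± 0.53 and 0.63 ± 0.53 (limma adjusted p = 0.921 and 0.368). The dimmest set (1371120_s_at) was above background on 0 of 13 arrays, so no change is given for it.

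Adm (1387219_at), the precursor of adrenomedullin, a peptide that widens vessels, rose in L-NAME. Its log2 signal was 6.98, 6.33, 6.68, 6.86 and 6.29 in control, 6.35, 6.56, 6.31 and 6.66 in Met-fed and 7.60, 7.13, 7.29 and 7.63 in L-NAME. The L-NAME arrays were all above those of both other groups, and the Met-fed arrays lay within the control range. L-NAME was 1.72-fold higher than control (95% interval 1.36 to 2.19; log2 change 0.78 ± 0.16, SE; 7.41 ± 0.25 against 6.63 ± 0.31, SD; limma adjusted p = 0.000844; exact permutation p = 0.0159). The Met-fed mean was 6.47 ± 0.17, a change of -0.16 ± 0.16 with a 95% interval of -0.51 to 0.19 (limma adjusted p = 0.768).

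**Figure D1:**
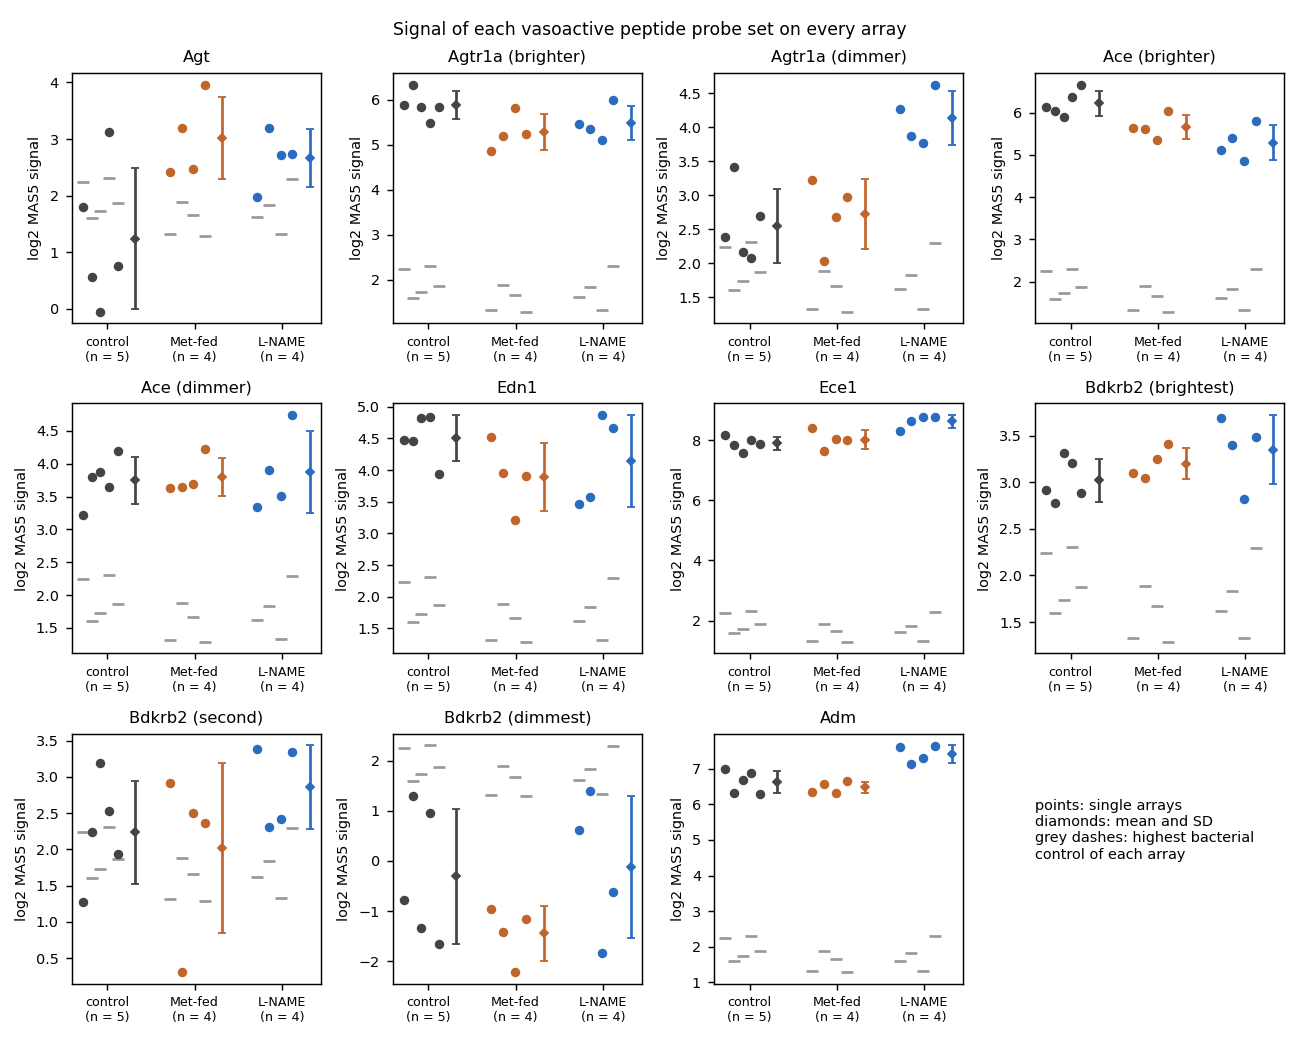
The log2 MAS5 signal of each of the 11 probe sets on every array (points), with group means and SD (diamonds) and the brightest bacterial control of each array (grey dashes). The L-NAME points of Ece1, Adm and the dimmer Agtr1a sit above all control points and those of the brighter Ace below them, while the dimmest Bdkrb2 set never rises above the dashes.

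Against control, 4 of the 11 probe sets (36.4%) were called in L-NAME at an adjusted p under 0.05, where 45.7% of all probe sets were. Of these, 3 were higher and 1 lower, against 28.7% higher and 17.0% lower over the array, and the same 4 were those whose groups did not overlap, against 40.3% of all probe sets. Among the 4 members of at least median signal 3 were called, against 64.6% of all such probe sets. The members' share was thus near that of the array. The median member change was 0.33, against 0.22 for all probe sets. That array-wide median differed with signal, being 0.42 for probe sets under the median signal and 0.07 for the others. Of the 11 members, 7 were under the median signal, and the 4 others had a median change of 0.17. On the scale of the whole array, the change of the dimmer Agtr1a exceeded that of 90.2% of all probe sets, those of Adm and Ece1 exceeded 71.3% and 69.5%, and that of the brighter Ace exceeded 9.69%.

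Met-fed hearts gave no called member, and none of the 31042 probe sets was called by limma (0%), at all signals or at the median signal and above. At an unadjusted p under 0.05 there were 3 of 11 members (27.3%), namely Agt, which was higher over a control level mostly at background, and the brighter sets of Agtr1a and Ace, which were lower, against 10.7% of all probe sets. None of the 11 had groups without overlap, against 2.89% of the array. The median member change was -0.16. Both comparisons use the same 5 control arrays, so the values of Met-fed and L-NAME against control are not independent of each other.

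**Figure D2:**
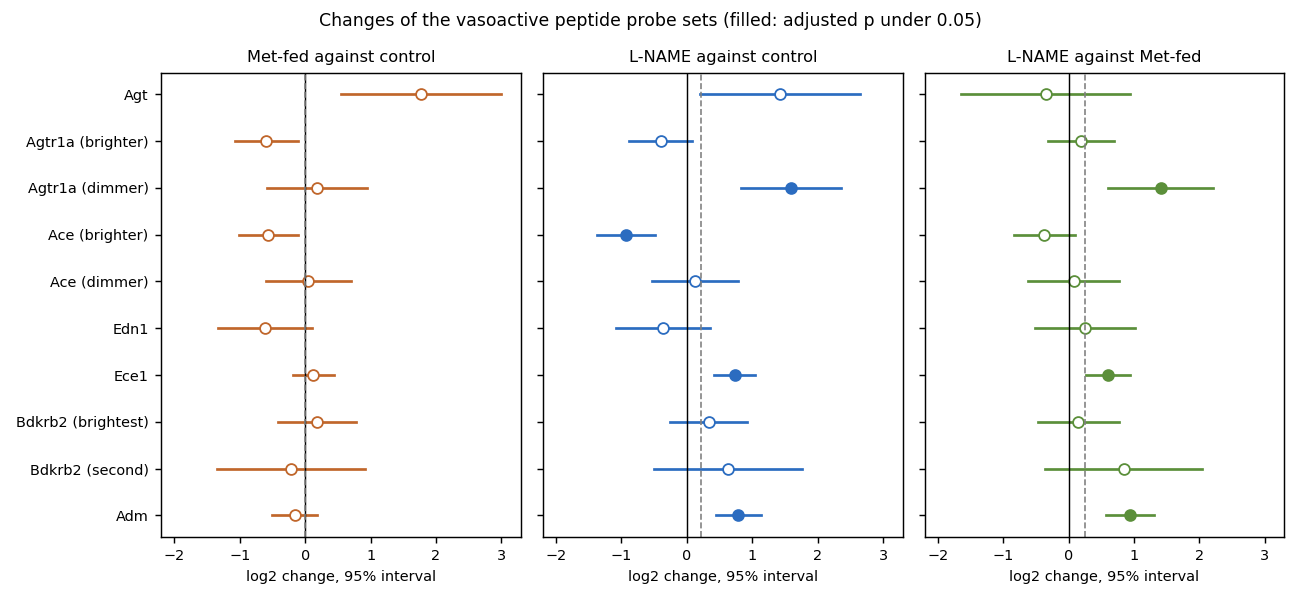
Log2 change of each probe set with its 95% interval in the 3 comparisons, filled where the limma adjusted p was under 0.05, with the median change of all probe sets as a dashed line. No symbol is filled for Met-fed against control, 4 are filled for L-NAME against control and 3 for L-NAME against Met-fed. The dimmest Bdkrb2 set is left out because it was never above background.

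How much of the L-NAME change remained depended on how arrays were scaled. The median change of all probe sets was 0.22 as deposited, -0.01 after quantile normalization and -0.21 with arrays centred on the median signal of each. With arrays centred on their median signal, Ece1 changed by 0.30 ± 0.14 (SE; limma adjusted p = 0.0971) and Adm by 0.36 ± 0.16 (limma adjusted p = 0.0747), so both kept their direction and lost their call. Ace on its brighter set changed by -1.36 ± 0.20 (limma adjusted p = 3.1e-05), and the dimmer Agtr1a by 1.16 ± 0.35 (limma adjusted p = 0.0122). The brighter Agtr1a passed the test only under another scaling, at -0.82 ± 0.24 when centred (limma adjusted p = 0.00830) and -0.77 ± 0.24 after quantile normalization (limma adjusted p = 0.0146). After quantile normalization Ece1 and Adm were called, at 0.63 ± 0.15 and 0.58 ± 0.16 (limma adjusted p = 0.00210 and 0.00702). Over all probe sets, 8908 were called higher and 5275 lower as deposited, 4952 and 9232 when centred, and 6823 and 6796 after quantile normalization.

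**Figure D3:**
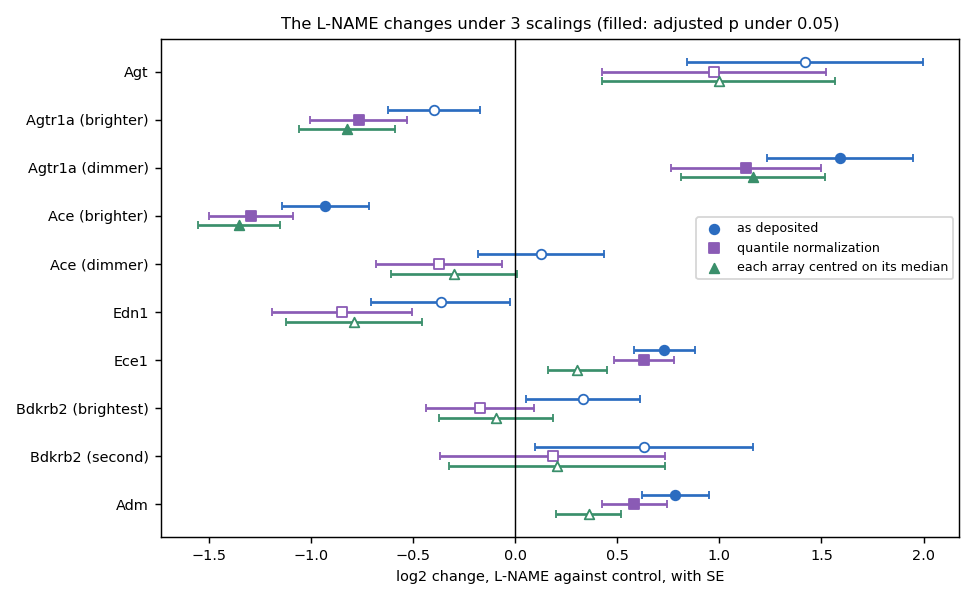
Log2 change of each probe set in L-NAME against control, with SE, under the deposited scaling, quantile normalization and centring of each array on its median, filled where the limma adjusted p was under 0.05. The brighter Ace and the dimmer Agtr1a are filled under all 3 scalings, Ece1 and Adm under the deposited and quantile scalings, and the brighter Agtr1a under the other 2 scalings but not as deposited.

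Ace and Agtr1a were each read by a brighter and a dimmer probe set, and the distance between them was tested within arrays. For Ace, the log2 signal of the dimmer set minus that of the brighter one was -2.48 ± 0.36 (SD, n = 5) in control, -1.87 ± 0.17 (n = 4) in Met-fed and -1.42 ± 0.30 (n = 4) in L-NAME. It was thus higher by 1.06 in L-NAME (exact permutation p = 0.00794, 0.0238 adjusted over 6 comparisons) and by 0.61 in Met-fed (exact permutation p = 0.0159, adjusted 0.0317). The Met-fed value for Ace was 0.66, 0.54 and 0.59 without Met-fed replicate 1, 3 or 4, where fewer arrays remained and it did not pass (exact permutation test, adjusted p = 0.0536, 0.0571 and 0.0804). For Agtr1a it was -3.33 ± 0.30 (SD, n = 5) in control, -2.56 ± 0.74 (n = 4) in Met-fed and -1.34 ± 0.11 (n = 4) in L-NAME, higher by 1.99 in L-NAME (exact permutation p = 0.00794, adjusted 0.0238) and by 0.77 in Met-fed (exact permutation p = 0.0635, adjusted 0.0635). Without Met-fed replicate 2 the Met-fed value for Agtr1a was 0.98 and passed (exact permutation test, adjusted p = 0.0429). These values came from within each array, so no scaling of whole arrays by a constant changes them. Their size did depend on other settings. Over 17 alternatives the L-NAME value ran from 0.47 to 2.09 for Agtr1a and from 0.52 to 1.18 for Ace, and all 17 passed for both. In Met-fed 14 of 17 passed for Ace and 3 of 17 for Agtr1a. The probe sets of Bdkrb2 were not tested against each other. Over 4525 genes with more than 1 probe set, the next brightest set changed more upward than the brightest in 70.7% in L-NAME and in 56.6% in Met-fed, and among 19 such genes of these pathways in 73.7% and 52.6%. Over the 4525 genes, the change of the next brightest minus that of the brightest had a median of 0.62 in L-NAME and 0.06 in Met-fed. The tests of Ace and Agtr1a were against no difference and not against these medians. Which transcript ends the probe sets of Ace and Agtr1a read was not tested.

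**Figure D4:**
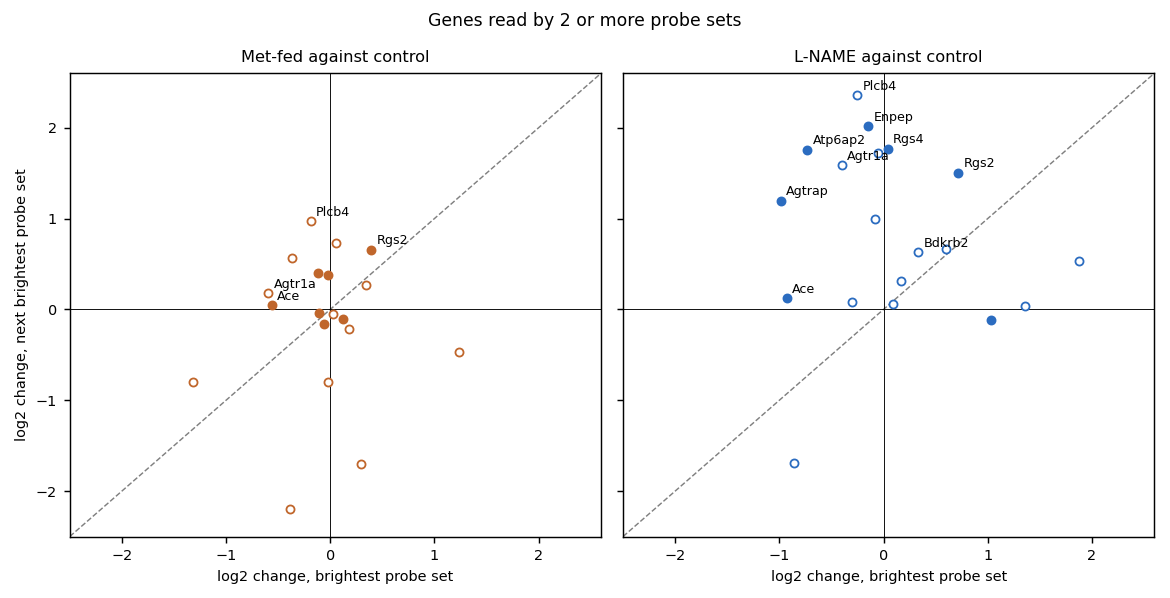
For the 19 vasoactive peptide and pathway genes with more than 1 probe set, the log2 change of the next brightest set (vertical axis) against that of the brightest (horizontal axis), open where the next brightest was at background on an array, with equality as a dashed line. In L-NAME 14 of 19 genes lie above the line, with Agtr1a and Ace in the upper left quadrant, and in Met-fed 10 of 19 do.

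Against Met-fed, L-NAME was higher for 3 of 11 members (27.3%), where 40.3% of all probe sets were called, 25.4% higher and 14.9% lower. Among the 4 members of at least median signal 2 were called, against 57.6% of such probe sets, and 2 of 11 had groups without overlap, against 39.6%. Adm was 1.92-fold higher (log2 change 0.94 ± 0.17, SE; limma adjusted p = 0.000375; exact permutation p = 0.0286, the smallest that 4 against 4 arrays allow). The dimmer Agtr1a was 2.66-fold higher (1.41 ± 0.38; limma adjusted p = 0.00695; exact permutation p = 0.0286), and it lost its call after quantile normalization at 0.91 (limma adjusted p = 0.0783). Ece1 was 1.52-fold higher (0.61 ± 0.16; limma adjusted p = 0.00577; exact permutation p = 0.0571), with Met-fed replicate 1 inside the L-NAME range, and was not called when arrays were centred at 0.24 (limma adjusted p = 0.238). The brighter Ace differed by -0.37 ± 0.22 (limma adjusted p = 0.209), and by -0.69 after quantile normalization and -0.74 when centred it was called (limma adjusted p = 0.020 and 0.0108). Agt differed by -0.35 ± 0.61 with a 95% interval of -1.64 to 0.94 (limma adjusted p = 0.688), and Edn1 by 0.25 ± 0.36 (limma adjusted p = 0.628).

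The wider pathways were read from a list of 47 other genes, of which 40 had a probe set and were each taken at the brightest. In L-NAME against control 12 of the 40 were called higher, 6 lower and 22 neither. By probe set, 25 of 57 (43.9%) were called, against 45.7% of the array. The counts by group below stand beside 28.7% of all probe sets called higher and 17.0% called lower. In Met-fed none of the 57 was called, and 8 (14.0%) had an unadjusted p under 0.05, against 10.7% of all probe sets. The median change over the 40 genes was 0.09 in L-NAME and -0.11 in Met-fed. The L-NAME split depended on the scaling, with 7 called higher and 5 lower after quantile normalization and 4 higher and 11 lower with arrays centred on their median.

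Around adrenomedullin, 3 of 7 genes were called higher in L-NAME, 1 lower and 3 neither. Calcrl, which encodes the receptor chain shared by adrenomedullin and CGRP (calcitonin gene-related peptide), changed in L-NAME by 1.36 ± 0.18 (SE), from 5.87 ± 0.31 in control to 7.23 ± 0.24 (SD). Ramp1, the partner that turns this chain into a CGRP receptor, changed by 1.01 ± 0.25, and Ramp2, the partner that gives adrenomedullin binding, by -0.62 ± 0.10, from 9.78 ± 0.21 to 9.16 ± 0.12 (SD). Ramp3, the other adrenomedullin partner, was called but was above background on 4 of 13 arrays. Calca and Calcb were not called, and Ackr3, not called as deposited, was called higher after quantile normalization and lower with arrays centred on their median. With that centring Calcrl was called higher and Ramp2 lower, while Ramp1 and Ramp3 were not called. The second probe set of Calcrl, above background on 8 of 13 arrays, changed by 0.03 ± 0.55.

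Of 12 other renin-angiotensin genes, 3 were called higher, 3 lower and 6 neither in L-NAME, and with arrays centred on their median 2 were higher (Lnpep and Prcp) and 5 lower. On their brightest sets, the aminopeptidase Lnpep, which binds angiotensin IV, changed by 1.87 ± 0.33 and the carboxypeptidase Prcp, which inactivates angiotensin II, by 1.03 ± 0.18. Their other sets were dim and not called, at 0.53 ± 0.48 for Lnpep (above background on 11 of 13 arrays) and -0.12 ± 0.36 for Prcp. The chymase Cma1, a mast cell enzyme, changed by 0.65 ± 0.20. The prorenin receptor Atp6ap2 changed by -0.73 ± 0.08 on its brightest probe set and by 1.76 ± 0.25 on its other one, and Agtrap, which lowers surface levels of the angiotensin receptor, by -0.99 ± 0.19 and 1.20 ± 0.34. The aminopeptidase Anpep changed by -0.65 ± 0.22, and Enpep, which trims angiotensin II, by -0.15 ± 0.09 on the brightest set, not called, and 2.02 ± 0.14 on the other. Mme, which encodes neprilysin, a peptidase that degrades several of these peptides, changed by -1.48 ± 0.28 and was the 1 gene of 5 called in the endothelin group by its brightest set, with the second set of Kel at 1.73 ± 0.54. The second set of Ece2, a relative of Ece1 that was above background there on 6 of 13 arrays, was called in L-NAME against Met-fed. In the kallikrein-kinin group 0 of 5 genes were called, and the 5 brightest sets were all dim.

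Of 11 genes of signal transduction downstream of these receptors, 6 were called higher in L-NAME, 1 lower and 4 neither as deposited, but only Gna11 was called higher and 3 lower (Plcb4, Rgs4 and Rgs5) with arrays centred on their median. Of the 11, 9 had at least the median signal, where 64.6% of all probe sets were called as deposited. Gna11, a G protein subunit that couples angiotensin and endothelin receptors to phospholipase C, changed by 1.59 ± 0.27. Its set was dim, at a mean log2 signal of 3.41, and above background on all 13 arrays. The phospholipase Plcb1 changed by 0.61 ± 0.18, whereas Plcb4 changed by -0.25 ± 0.09 on its brightest set and 2.36 ± 0.38 on the other. The receptor-silencing genes Arrb2, Grk2 and Grk5 changed by 0.69 ± 0.16, 0.48 ± 0.13 and 0.57 ± 0.22. Rgs2, which shortens Gq signaling, changed by 0.72 ± 0.17 and 1.50 ± 0.27 on its probe sets, and Rgs4 by 0.04 ± 0.12 on the brightest, not called, and 1.77 ± 0.30 on the other. Against Met-fed, 10 of the 40 genes were called higher in L-NAME and 4 lower, and by probe set 21 of 57 (36.8%). Agtr1b was among those called higher, but its probe set was above background on only 2 arrays. Its mean log2 signal was 1.63 in control, -1.82 in Met-fed and 1.18 in L-NAME. L-NAME was thus not above control for Agtr1b, with a change of -0.45 ± 0.63 (SE; limma adjusted p = 0.596).

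**Figure D5:**
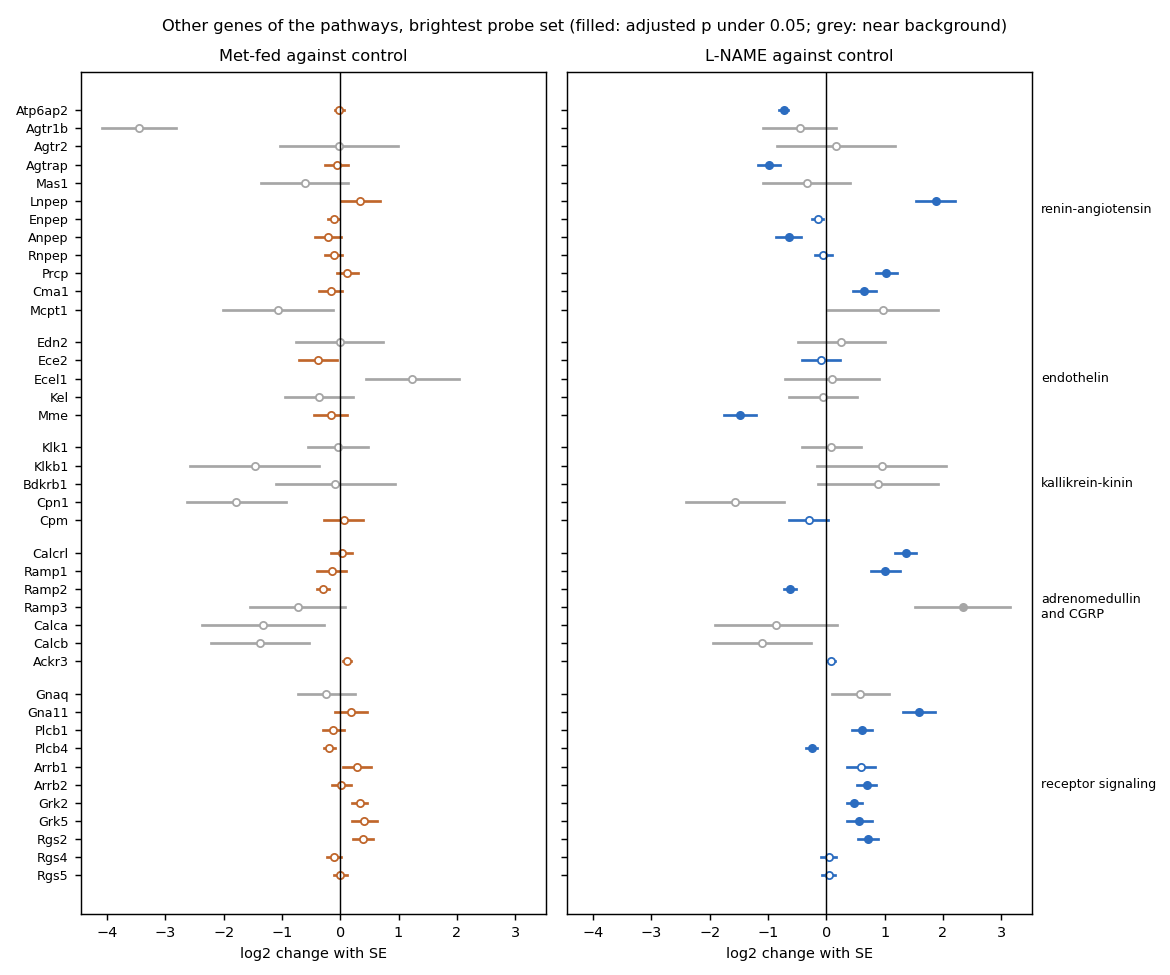
Log2 change, with SE, of the brightest probe set of each of the 40 measured pathway genes in Met-fed and in L-NAME against control, filled where the limma adjusted p was under 0.05 and grey where the set was at background on at least 1 array. No symbol is filled for Met-fed and 18 are for L-NAME, with 12 to the right of 0 and 6 to the left.

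The probe sets whose array-to-array pattern was most like that of each member were sought among 11936 candidates, by the correlation of deviations from the group means over 13 arrays. The closest to Agtr1a (brighter) was Map3k20 (r = 0.95), to Ace (brighter) Prkd3 (0.93), to Edn1 Celf1 (0.91), to Ece1 Sfxn1 (0.92), to Bdkrb2 (brightest) Cep152 (0.89) and to Adm LOC103692984 (0.88). Across all 13 arrays with the groups left in, the same pairs had r of 0.68, -0.30, 0.37, 0.47, -0.10 and -0.31. The correlation was lower for all 6 members once the groups were left in, and below 0 for Ace, Bdkrb2 and Adm. Because each pair was picked for its high r without the group means, a lower r on the other measure can follow from that choice. These are the highest of many candidates over few arrays and are given as a description.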

How the data were processed

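LV tissue of pregnant rats was profiled on 13 single-colour Affymetrix arrays (5 control, 4 Met-fed, 4 L-NAME). The deposited values are linear intensity signals that the authors computed with MAS5, as named in the submitters' processing notes without a version. Trimmed by 2% at both ends, all arrays had a mean of 150.0, and no further normalization was applied here. The deposited table holds no detection calls, so background was judged from bacterial controls, and the number of arrays limits the precision. Groups were taken from the sample labels.

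Of 31099 probe sets, 57 controls were set aside and log2 values of the other 31042 were fitted with limma 3.58.1 in R 4.3.3, with 1 coefficient per group over all 13 arrays with a signal-dependent variance prior, and p-values were adjusted by Benjamini-Hochberg at a threshold of 0.05. Genes were named from a platform annotation in which 20826 probe sets had 1 symbol, 436 several and 9780 none, and a probe set with several was not used. Exact permutation tests (2-sided, difference of means) ran over all splits of both groups. The smallest p they can give is 0.00794 for 4 against 5 arrays and 0.0286 for 4 against 4. The limma fit was tested on simulated data in this design. Alternatives were quantile normalization, centring on the array median, offsets of 16 and 50 before the log, the methods' t-test, a fit without the third group or without the variance trend, only probe sets of at least median signal, the replicate number as a block and leaving out each array.

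The genes and lists were chosen with earlier results of these data known. Named genes were all member probe sets, each pathway gene with a called probe set, and the probe sets most like a member, while Calca, Calcb, Ackr3 and Rgs5 were named after their values were seen. The variance stabilization that the study's methods name was not repeated. Figures were drawn with matplotlib 3.10.9.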

Additional observations from a re-analysis of the deposited data

Results flagged for a closer look

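The dimmer Ace probe set read 4.22 in Met-fed replicate 4 and 3.63 to 3.69 in the other 3 Met-fed arrays, a gap that passed Dixon's limit for a group of 4. It was the only one among 33 groups tested, and chance passes about 1 in 20. The median signal of that array was 29.0, the second highest of the Met-fed arrays, and the part of this in the value was not tested.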

How the results depend on the processing

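Of 774 recomputed values, 719 kept their direction and their side of the threshold, 12 passed it newly, 18 no longer passed and 25 changed sign, all 25 of them in differences that were not called. The sign changed after quantile normalization in L-NAME against control for the dimmer Ace (-0.37) and the brightest Bdkrb2 (-0.17), and in L-NAME against Met-fed for the brighter Agtr1a (-0.12), the dimmer Ace (-0.40), Edn1 (-0.22) and the brightest Bdkrb2 (-0.35). With arrays centred on their median it changed for the same results, at -0.30 and -0.094 and at -0.17, -0.29, -0.12 and -0.22, and for the dimmer Ace in Met-fed against control (-0.0080). Without the 2 Met-fed arrays of highest median signal, chosen after seeing the data, it changed in Met-fed against control for the dimmer Agtr1a (-0.19), the dimmer Ace (-0.080) and Ece1 (-0.054), and in L-NAME against Met-fed for the brighter Agtr1a (-0.031). Leaving out each array in turn, values crossed 0 for the dimmer Ace in Met-fed (-0.093 to 0.16), L-NAME (-0.16 to 0.30) and L-NAME against Met-fed (-0.21 to 0.25), and in Met-fed for Ece1 (-0.0030 to 0.25) and the second Bdkrb2 set (-0.51 to 0.36). The cause was not tested.

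The 4 calls in L-NAME against control remained in all 13 fits that left out 1 array. The pathway probe sets called in L-NAME against Met-fed numbered 12 among those of at least median signal, where fewer were tested, against 21. Offsets of 16 and 50 took the change of the dimmer Agtr1a in L-NAME against control to 0.61 and 0.28 and that of Agt to 0.24 and 0.089, with Agt in Met-fed at 0.37 and 0.14. They changed no call of these. The methods' t-test called 4 and 2 members in the L-NAME comparisons and 0 in Met-fed, where Ece1 in L-NAME against Met-fed was lost at an adjusted p of 0.0525. Same-numbered samples of different groups did not deviate together more than others. Their r ran from -0.21 to 0.24 over 12 pairs, against -0.29 to 0.28 for other pairs, and was best with its own number in 6 of 24. No pairing by number was thus seen, though so few pairs cannot show that there is none. With the replicate number as a block, 4 members were called in L-NAME against control, 3 in L-NAME against Met-fed and 0 in Met-fed, and no member call changed.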
